A study of Mus musculus with 4 samples.

Results

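The 45 genes described here act in the G2 phase and in mitosis of the cell division cycle. They were listed by name, as mitotic kinases, cyclins, spindle checkpoint, kinesin, kinetochore, condensin and cytokinesis genes, and looked up through their Entrez identifiers. All 45 were found among the 23480 identifiers of each library, and all 45 were among the 10324 genes that passed the filter on low counts, with 54 to 4750 reads per gene and library. RNA-seq had been run on mouse T cells, in 2 libraries of the Th9+TLA1 condition and 2 of the Th9 condition. Th9 cells, a helper T cell subset, are named for the interleukin 9 they secrete, and the series title names the added TNF family cytokine TL1A, which the labels write TLA1. No mouse strain, age, culture time or purification is given in the labels, and nothing in them says that the libraries came from separate animals or cultures. P-values therefore reflect library-to-library spread alone, part or all of which may be technical. The question here was how the transcripts of dividing cells differed when TL1A was added to Th9 conditions.

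In a cycling cell, CDK1 bound to A and B type cyclins drives entry into mitosis, and Aurora and Polo kinases then build the spindle. The spindle checkpoint holds back the anaphase-promoting complex (APC/C) until every kinetochore is attached, after which cyclin B and securin are destroyed and the cell divides. Transcripts of these proteins are known to build up together in G2, and the DREAM complex in resting cells and B-MYB with FOXM1 in dividing cells act on a short promoter element, the cell cycle homology region, often beside CCAAT boxes bound by NF-Y. Activated T cells are among the fastest dividing cells of the body. In bulk RNA, fewer cells in G2 and mitosis and less of these transcripts per cell cannot be told apart.

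With TL1A, Mki67, which encodes the chromosome surface protein Ki-67, fell 2.24-fold (limma adjusted p = 0.0464, n = 2 libraries per group). It was the 1 member of 45 that passed the test, where 1.14% of all tested genes passed, 0.252% in the lower direction and 0.891% in the higher. Without Th9 replicate 1 its log2 fold change of -1.16 came to -0.76, with an adjusted p of 0.216, and it also missed the threshold without Th9 replicate 2 (0.0803) and without Th9+TLA1 replicate 2 (0.0669). The median log2 fold change (Th9+TLA1 over Th9, on the log2(CPM + 1) scale) was -0.45 over the 45 members and -0.013 over all tested genes. It lay below 0 for 44 members, with Kif4 the exception, and for 51.1% of all tested genes. Transcripts of these genes are known to vary together with the cell cycle, so the members are not separate observations.

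The promoters of these genes are shown because the members are known to share a promoter element. Promoter sequences of RefSeq (GRCm38.p6, 250 bases before to 50 bases after each transcript start) were at hand for 37 of the 45 genes, in 40 promoters. They were searched on both strands for TTTGAA, a form of the cell cycle homology region, and for CCAAT. Other forms of the region were not searched for. In the sequences below, capitals mark these letters or, where the match lies on the other strand, their reverse complements TTCAAA and ATTGG.
Mki67, chr7:135716330-135716629, - strand: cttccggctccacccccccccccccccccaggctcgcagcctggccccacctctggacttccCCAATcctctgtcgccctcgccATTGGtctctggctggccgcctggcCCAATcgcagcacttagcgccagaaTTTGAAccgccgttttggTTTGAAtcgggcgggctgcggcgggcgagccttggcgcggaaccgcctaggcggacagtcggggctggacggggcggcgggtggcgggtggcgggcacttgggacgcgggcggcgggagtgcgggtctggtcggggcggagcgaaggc
Ccnb2, chr9:70421505-70421654, - strand: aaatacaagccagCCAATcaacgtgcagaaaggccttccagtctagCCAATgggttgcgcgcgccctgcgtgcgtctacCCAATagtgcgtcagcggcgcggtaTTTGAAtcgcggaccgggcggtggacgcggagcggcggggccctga
Plk1, chr7:122159335-122159484, + strand: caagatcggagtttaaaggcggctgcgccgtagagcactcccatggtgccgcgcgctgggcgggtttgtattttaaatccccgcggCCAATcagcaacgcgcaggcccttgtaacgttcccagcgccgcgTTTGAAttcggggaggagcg
Cdc20, chr4:118437294-118437443, - strand: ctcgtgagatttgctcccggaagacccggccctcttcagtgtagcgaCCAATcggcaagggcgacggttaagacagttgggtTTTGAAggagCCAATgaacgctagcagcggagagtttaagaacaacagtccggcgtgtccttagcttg
Kif11, chr19:37376282-37376431, + strand: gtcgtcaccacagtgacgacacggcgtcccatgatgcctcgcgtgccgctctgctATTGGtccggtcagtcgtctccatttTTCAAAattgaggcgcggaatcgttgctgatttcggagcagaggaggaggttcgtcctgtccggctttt
Kif4, chrX:100625965-100626114, + strand: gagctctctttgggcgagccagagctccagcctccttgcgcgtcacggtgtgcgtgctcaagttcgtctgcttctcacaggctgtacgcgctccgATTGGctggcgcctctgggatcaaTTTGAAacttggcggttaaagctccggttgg
Bub1, chr2:127831810-127831959, - strand: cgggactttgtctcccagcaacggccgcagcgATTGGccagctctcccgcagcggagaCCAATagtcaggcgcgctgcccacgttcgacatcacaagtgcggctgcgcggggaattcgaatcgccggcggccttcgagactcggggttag
Mki67, the called gene, is printed over all 300 bases, and the others over the 100 bases before and the 50 bases after the start. Counted from the start, with base 1 as the first transcribed base, the closest TTTGAA of Mki67 began at -98, and that of Ccnb2 at 5, of Plk1 at 31, of Cdc20 at -18 and of Kif11 at -19. The window of Mki67 was set on a start inside its RefSeq locus, which ends at 135716450, within the printed stretch. Counted from that locus end, its TTTGAA lies nearer. Kif4, whose fold change had the other sign, held TTTGAA at 20, and Bub1 held none in its window. The printed Bub1 sequence does hold ttcgaa, a near form that was not searched for. A window without TTTGAA is thus not shown to lack the element.

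TTTGAA was present in 32 of the 40 member promoters (80%), against 12.0% of the 10591 promoters of tested genes and 17.9% of all 32851 promoters. Within 50 bases of the start it was present in 70% of member promoters, 3.12% of those of tested genes and 4.94% of all. CCAAT was present in 80% of member promoters, 38.3% of those of tested genes and 37.4% of all, and both motifs together in 70%, 4.95% and 6.95%. Of the 42 TTTGAA matches in member promoters, 1 overlapped a CCAAT match. Ect2, Prc1 and Bub3 had overlapping windows, so their matches were counted more than once. Counted by gene, 29 of 37 members (78.4%) held TTTGAA, against 14.1% of the 8339 tested genes with a promoter. The windows of Kif2c, Ncapd2, Aurka, Ect2 and Cdc25b lay wholly inside their RefSeq loci, not at the locus end. Of these, only Cdc25b was counted as without TTTGAA. The shares thus depend on the starts used. The median log2 fold change was -0.44 over 29 members with TTTGAA (range -1.16 to 0.23) and -0.45 over 8 without it (range -0.87 to -0.27), and a difference between them was not tested.

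All 4 libraries carried T cell transcripts, with a summed level over 12 T cell markers of 4716 and 4389 CPM, the deposited unit, which scales a gene's reads to the library total, in the Th9+TLA1 libraries and 3536 and 3973 CPM in the Th9 libraries. Recovered reads came to 2979482 and 3081187 in the Th9+TLA1 libraries and 4041633 and 3167270 in the Th9 libraries, and 3 reads were worth 0.742 to 1.01 CPM. Lists for CD8 T cells, B cells, macrophages, dendritic cells, NK cells, mast cells and erythroid cells each summed to at most 29.2 CPM in any library. The B cell list was the highest of these, at 28.9 and 29.2 CPM in Th9+TLA1 and 10.4 and 12.9 CPM in Th9, most of it Cd79b, while 4 of its 7 genes, Ms4a1 and Pax5 among them, had no read in any library. The dendritic cell list summed to 15.4 and 8.76 CPM in Th9+TLA1 and 5.69 and 3.16 CPM in Th9, and the macrophage list to 7.72 and 4.54 CPM in Th9+TLA1 and 3.22 and 1.89 CPM in Th9. The part of these cells in the results was not tested.

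The 45 genes together took 5432 and 6119 CPM in the Th9+TLA1 libraries and 9478 and 7460 CPM in the Th9 libraries. Both Th9+TLA1 libraries lay below both Th9 libraries in this sum, and the Th9 libraries differed more from each other than the Th9+TLA1 libraries did. Of the 45 genes, 36 had their highest level in Th9 replicate 1, where 37.6% of all tested genes did, and 30 had their lowest in Th9+TLA1 replicate 1, where 32.2% of all tested genes did. For 37 members both Th9+TLA1 values lay below both Th9 values, and for 0 members above them. Over all tested genes the shares without overlap were 29.0% in the lower direction and 19.1% in the higher. After TMM scaling the members without overlap numbered 33, against 23.7% of all tested genes. At an unadjusted p under 0.05, 20 members were lower and 0 higher, where 8.14% of all tested genes were lower and 8.54% higher, 16.7% in all.

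**Figure D1:**
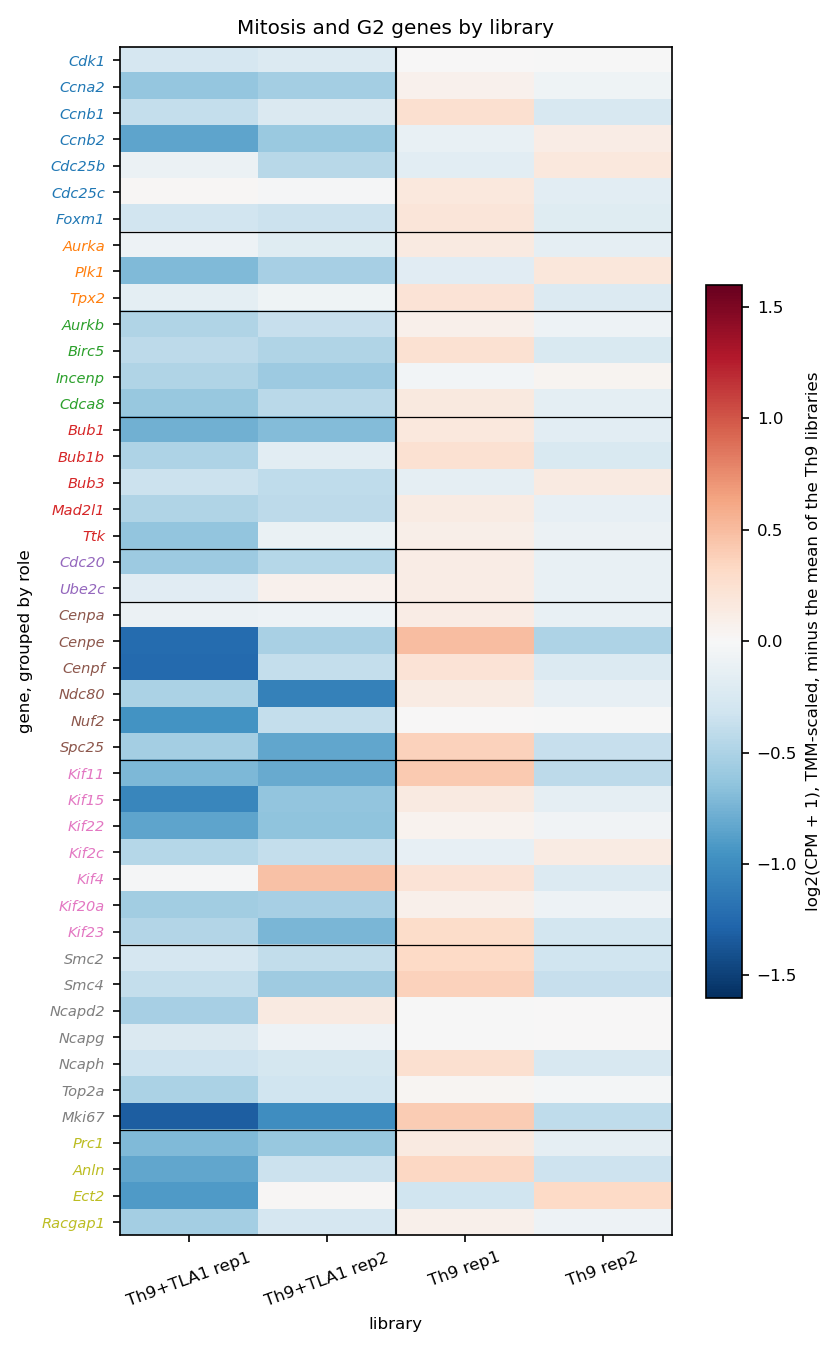
Levels of the 45 mitosis and G2 genes (rows, coloured and separated by role) in each library (columns), as TMM-scaled log2(CPM + 1) minus the mean of the 2 Th9 libraries. The Th9+TLA1 columns are mostly blue, with a median of -0.51 in replicate 1 and -0.39 in replicate 2, and the Th9 medians are 0.13 in replicate 1 and -0.13 in replicate 2.

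Among CDK1, its cyclins and their activators, none of 7 genes passed the test, and the median log2 fold change was -0.31. This median was -0.25 with Th9 replicate 1 left out and -0.51 with Th9 replicate 2 left out. Ccnb2 (Entrez 12442, chromosome 9, 70407689 to 70421554 of mm10), a B type cyclin, had 71.2 and 85.4 CPM in Th9+TLA1 and 130.1 and 145 CPM in Th9. Its log2 fold change was the furthest from 0 of these 7, at -0.72 ± 0.22 (SE, limma adjusted p = 0.138). Ccna2 (Entrez 12428, chromosome 3, 36564865 to 36573038), the cyclin of S phase and G2, had 205 and 218 CPM in Th9+TLA1 and 364 and 314 CPM in Th9, with a log2 fold change of -0.58 ± 0.17 (adjusted p = 0.138). For both cyclins the groups did not overlap. The locus of Ccna2 overlaps that of Exosc9.

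Cdk1 (Entrez 12534), the kinase itself, had 172 and 179 CPM in Th9+TLA1 and 229 and 215 CPM in Th9, close replicates with a log2 fold change of -0.24 ± 0.18. Ccnb1, the other B type cyclin, had 87.6 and 98.0 CPM in Th9+TLA1 and 151 and 99.5 CPM in Th9. Its Th9+TLA1 values lay just below Th9 replicate 2, and after TMM scaling the groups overlapped. RefSeq lists a gene named as a pseudogene for each of Ccnb1 and Ccnb2, and reads shared with them may have been split or lost in counting.

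Cdc25b and Cdc25c encode phosphatases that switch CDK1 on. Cdc25c had 27.2 and 26.6 CPM in Th9+TLA1, between the 33.4 and 24.6 CPM in Th9, and a log2 fold change of -0.00097 ± 0.34. Cdc25b had 60.7 and 47.7 CPM in Th9+TLA1 and 63.6 and 75.5 CPM in Th9. Foxm1, which encodes a transcription factor of G2 and mitosis genes, had 55.0 and 53.9 CPM in Th9+TLA1 and 86.4 and 61.6 CPM in Th9, or -0.32 ± 0.25 as a log2 fold change (limma adjusted p = 0.563).

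Of the spindle-building kinases and their partner, none of 3 passed, with a median of -0.14. That median rested on single libraries: it was -0.0025 with Th9 replicate 1 left out and -0.32 with Th9 replicate 2 left out. Plk1 (Entrez 18817, chromosome 7, 122159435 to 122169884), the Polo kinase, had 42.6 and 49.0 CPM in Th9+TLA1 and 68.5 and 82.7 CPM in Th9. The groups did not overlap, and its log2 fold change was -0.62 ± 0.26 (limma adjusted p = 0.258). Aurka, the Aurora kinase of centrosomes, and Tpx2, which targets it to the spindle, lay nearer to 0. Aurka had 105.1 and 98.0 CPM in Th9+TLA1 and 136 and 104.8 CPM in Th9. Tpx2 had 231 and 248 CPM in Th9+TLA1 and 332 and 229 CPM in Th9, so that Th9 replicate 2 was the lowest of the 4 libraries.

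The chromosomal passenger complex corrects wrong attachments of chromosomes to the spindle, and its 4 genes had log2 fold changes in a narrow range of -0.53 to -0.42, none past the test. Incenp, its scaffold, had 112 and 106 CPM in Th9+TLA1 and 168 and 169 CPM in Th9, with the largest difference of the 4 (-0.53 ± 0.19, limma adjusted p = 0.206). Aurkb, its kinase, had 151 and 165 CPM in Th9+TLA1 and 245 and 208 CPM in Th9. Birc5 and Cdca8 encode survivin and borealin, the subunits that bring the complex to centromeres. Birc5 had 118 and 114 CPM in Th9+TLA1 and 206 and 139 CPM in Th9, and Cdca8 had 106 and 121 CPM in Th9+TLA1 and 199 and 151 CPM in Th9. In none of the 4 genes did the groups overlap.

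Among 5 spindle checkpoint genes none passed, and the median was -0.37. It was -0.32 with Th9 replicate 1 left out and -0.56 with Th9 replicate 2 left out. Bub1 (Entrez 12235, chromosome 2, 127800197 to 127831859), a checkpoint kinase, had 133 and 142 CPM in Th9+TLA1 and 282 and 211 CPM in Th9. Its log2 fold change was -0.73 ± 0.19 (limma adjusted p = 0.105), and DESeq2 on the recovered reads called it, at an adjusted p of 0.0429. DESeq2 called 2 members, Bub1 and Mki67, and 2.64% of all tested genes, 0.881% as lower. Its relative Bub1b, which encodes BUBR1 of the mitotic checkpoint complex, had 128 and 163 CPM in Th9+TLA1 and 236 and 159 CPM in Th9, with overlap between the groups.

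Bub3, the partner of both, had 163 and 158 CPM in Th9+TLA1 and 207 and 237 CPM in Th9. Mad2l1, which encodes MAD2, had 67.1 and 70.4 CPM in Th9+TLA1 and 114 and 89.0 CPM in Th9. Ttk, the MPS1 kinase gene that starts checkpoint signalling, had 53.7 and 78.9 CPM in Th9+TLA1 and 99.0 and 81.5 CPM in Th9. Their log2 fold changes lay between -0.45 and -0.37. Downstream of the checkpoint, Cdc20, the APC/C activator, had 72.5 and 79.8 CPM in Th9+TLA1 and 131 and 104.2 CPM in Th9 (log2 fold change -0.52 ± 0.22, limma adjusted p = 0.257). Ube2c, the ubiquitin-conjugating enzyme of the APC/C, had 86.3 and 104.2 CPM in Th9+TLA1 and 118 and 94.4 CPM in Th9, so its groups overlapped. The locus of Cdc20 overlaps that of Elovl1.

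**Figure D2:**
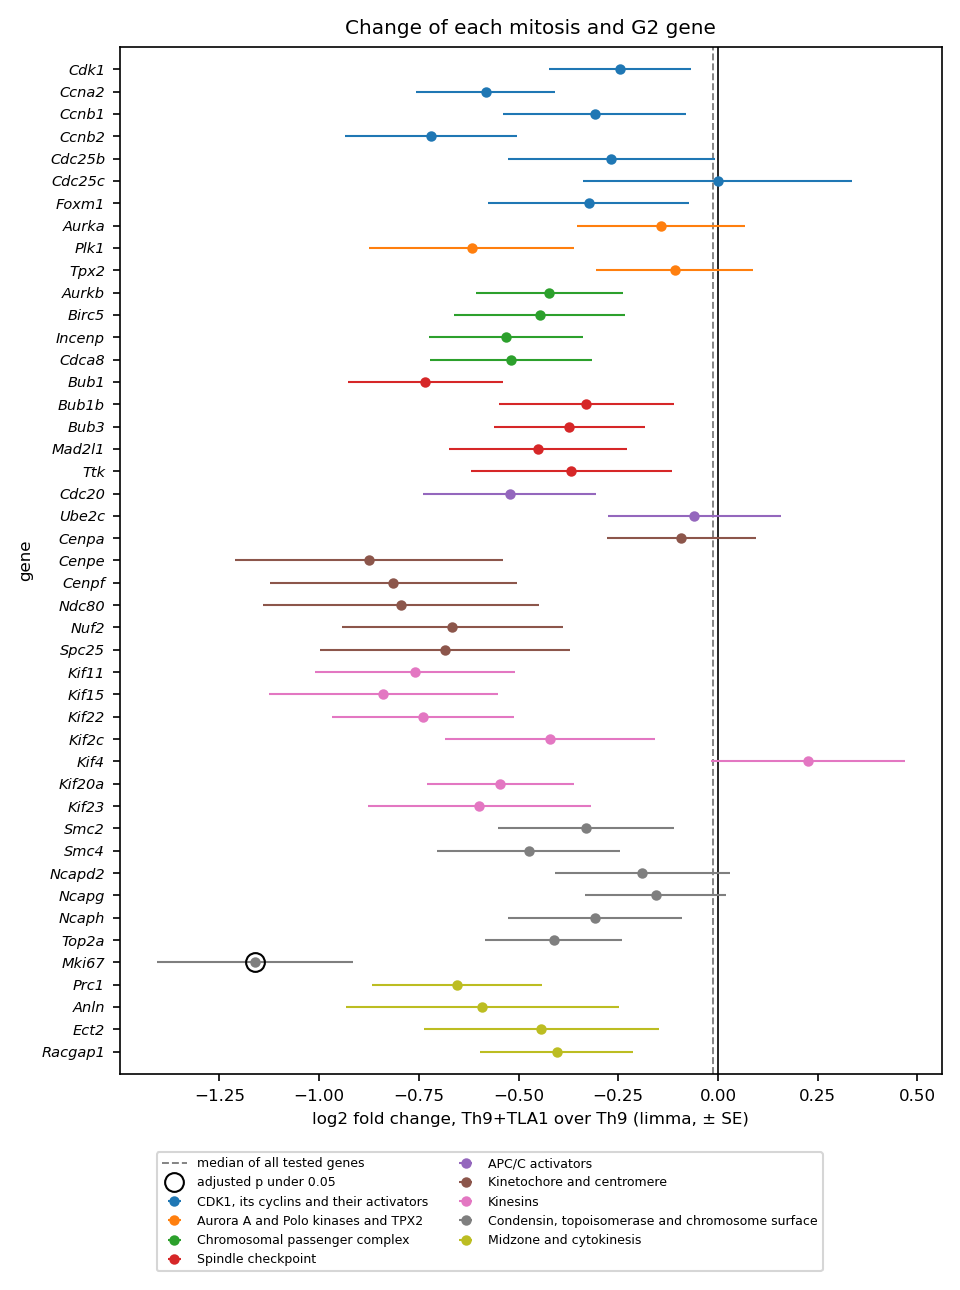
Log2 fold change (Th9+TLA1 over Th9, limma, bars ± SE) of each of the 45 genes, coloured by role, with the median of all tested genes as a dashed line and the called gene ringed. Points lie between -1.16 for Mki67 and 0.23 for Kif4, and 44 of 45 are below 0.

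The 6 kinetochore and centromere genes had a median of -0.74, and none passed the test. Their median was -0.45 with Th9+TLA1 replicate 1 left out, -0.49 with Th9 replicate 1 left out and -0.97 with Th9 replicate 2 left out. A difference between roles was not tested. Cenpe (Entrez 229841, chromosome 3, 135212563 to 135273540), which encodes a kinetochore motor, had 39.6 and 65.9 CPM in Th9+TLA1 and 146 and 69.5 CPM in Th9. Its log2 fold change was -0.87 ± 0.34 (limma adjusted p = 0.229), and it came to -0.39 without Th9 replicate 1 but -1.35 when Th9 replicate 2 was left out. Cenpf, a large kinetochore protein gene, had 34.2 and 63.6 CPM in Th9+TLA1 and 106 and 73.2 CPM in Th9. In both genes Th9+TLA1 replicate 2 lay close to Th9 replicate 2.

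Ndc80, Nuf2 and Spc25 encode subunits of the NDC80 complex, which holds spindle microtubules. Ndc80 had 26.2 and 17.5 CPM in Th9+TLA1 and 45.8 and 35.7 CPM in Th9, Nuf2 had 33.9 and 51.6 CPM in Th9+TLA1 and 74.0 and 68.8 CPM in Th9, and Spc25 had 38.3 and 31.5 CPM in Th9+TLA1 and 79.9 and 45.1 CPM in Th9. In all 3 the groups did not overlap, and their log2 fold changes were -0.80, -0.67 and -0.68. Spc24, the other subunit, is among the further kinetochore genes and had overlapping groups, at 41.3 and 63.9 CPM in Th9+TLA1 and 82.4 and 56.5 CPM in Th9. Cenpa, the centromeric histone H3 variant, had 169 and 172 CPM in Th9+TLA1 and 217 and 173 CPM in Th9, with a log2 fold change of -0.092 ± 0.19.

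Of 7 kinesin motor genes none passed, and the median was -0.60. Kif15, a spindle motor gene, had the largest difference, with 28.2 and 38.3 CPM in Th9+TLA1 and 72.5 and 55.6 CPM in Th9 (log2 fold change -0.84 ± 0.29, limma adjusted p = 0.181). Kif11 (Entrez 16551, chromosome 19, 37376382 to 37421863), the Eg5 motor that pushes spindle poles apart, had 135 and 129 CPM in Th9+TLA1 and 330.1 and 173 CPM in Th9. Th9 replicate 1 stood apart from the other 3 libraries, and without it the log2 fold change of -0.76 ± 0.25 was -0.34. Kif22, a motor of chromosome arms, had closer replicates, with 51.7 and 60.0 CPM in Th9+TLA1 and 107 and 93.5 CPM in Th9 (-0.74 ± 0.23, adjusted p = 0.146).

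Kif4 was the member with a log2 fold change above 0. Kif4 (Entrez 16571, chromosome X, 100626065 to 100727271) encodes a chromosome-bound motor that also limits the length of the spindle midzone. It had 94.6 and 133 CPM in Th9+TLA1 and 123 and 84.9 CPM in Th9, so the groups overlapped. Its log2 fold change was 0.23 ± 0.24 (limma adjusted p = 0.700), and -0.013 without Th9+TLA1 replicate 2. RefSeq lists a gene named as a pseudogene of Kif4 and one of Kif22. Kif2c, a microtubule-depolymerising kinesin gene, had 40.9 and 43.5 CPM in Th9+TLA1 and 56.9 and 64.4 CPM in Th9. Kif20a and Kif23 encode motors of the late spindle. Kif20a, whose locus overlaps Brd8 and Cdc23, had 140.3 and 145 CPM in Th9+TLA1 and 242 and 204 CPM in Th9, and Kif23 had 49.0 and 41.2 CPM in Th9+TLA1 and 92.3 and 57.8 CPM in Th9.

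**Figure D3:**
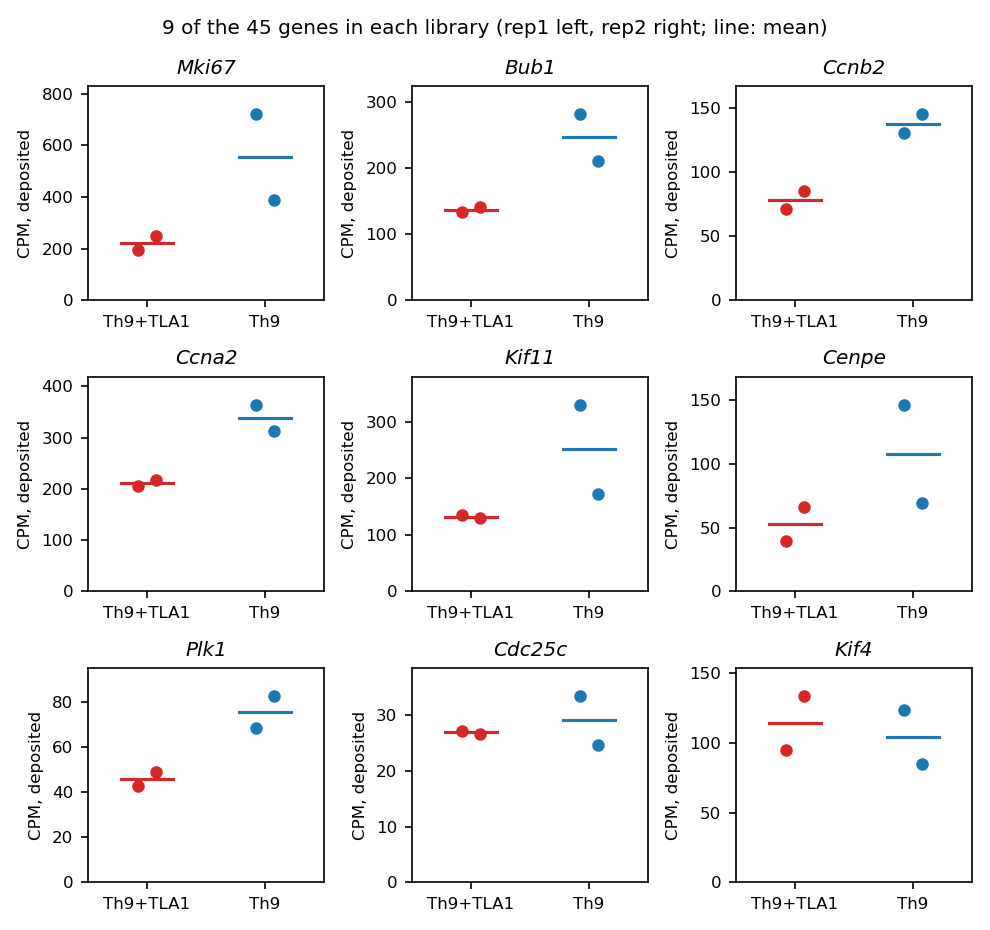
Deposited CPM of 9 of the 45 genes in each library, with replicate 1 left and replicate 2 right in each group and a line at the mean of n = 2. The Th9+TLA1 points of Mki67, Bub1, Ccnb2, Ccna2, Kif11, Cenpe and Plk1 lie below both Th9 points, and those of Cdc25c and Kif4 overlap with Th9.

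Among genes that shape mitotic chromosomes, Mki67 (Entrez 17345, chromosome 7, 135689784 to 135716450) had 197 and 250 CPM in Th9+TLA1 and 721 and 389 CPM in Th9. These are 587 and 770 reads in Th9+TLA1 and 2916 and 1233 reads in Th9. The groups did not overlap, but the Th9 libraries differed from each other by more than the lower of them differed from Th9+TLA1. The means were 223 ± 37.4 CPM in Th9+TLA1 and 555 ± 235 CPM in Th9 (SD, n = 2 each), and the log2 fold change was -1.16 ± 0.25 (SE). On the recovered reads, edgeR's quasi-likelihood test gave an adjusted p of 0.0271 and its legacy form 0.0517. Mki67 was the member called by edgeR's test and by limma voom, and the legacy form called 0 members. Over all tested genes edgeR called 1.56%, 0.426% as lower, limma voom 1.25%, 0.232% as lower, and the legacy form 1.07%, 0.262% as lower. With the trend over transcript length and GC content removed the log2 fold change was -0.96 and the adjusted p 0.0648.

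The other 6 genes of this role did not pass. Top2a (Entrez 21973, chromosome 11, 98992947 to 99024199), the topoisomerase that untangles sister chromosomes, was the member with the most reads. It had 733 and 847 CPM in Th9+TLA1 and 1175 and 1062 CPM in Th9, without overlap (log2 fold change -0.41 ± 0.17, limma adjusted p = 0.259). Smc2 and Smc4, the ATPase core of condensin, were both highest in Th9 replicate 1. Smc2 had 201 and 187 CPM in Th9+TLA1 and 334 and 203 CPM in Th9, and Smc4 had 286 and 252 CPM in Th9+TLA1 and 527 and 299.6 CPM in Th9. Their log2 fold changes were -0.33 for Smc2, whose groups overlapped after TMM scaling, and -0.47 for Smc4. The condensin I subunit genes had log2 fold changes of -0.19 for Ncapd2, -0.16 for Ncapg and -0.31 for Ncaph. Ncapd2 had 213 and 344 CPM in Th9+TLA1 and 337 and 322 CPM in Th9, so that Th9+TLA1 replicate 2 was the highest library. Ncapg had 203 and 227 CPM in Th9+TLA1 and 260.3 and 249 CPM in Th9, and Ncaph had 118 and 123 CPM in Th9+TLA1 and 197 and 129 CPM in Th9.

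The 4 midzone and cytokinesis genes had a median of -0.52 with none past the test, or -0.30 with Th9+TLA1 replicate 1 left out. Prc1, which bundles microtubules between separating chromosomes, had 77.5 and 83.7 CPM in Th9+TLA1 and 154 and 119 CPM in Th9 (log2 fold change -0.65 ± 0.21, limma adjusted p = 0.160). Racgap1, the partner of the KIF23 motor in centralspindlin, had 147 and 181 CPM in Th9+TLA1 and 252 and 211 CPM in Th9. Anln, which encodes the contractile ring protein anillin, had 23.5 and 33.8 CPM in Th9+TLA1 and 59.6 and 35.05 CPM in Th9. Ect2, the exchange factor that activates RhoA at the division site, ran otherwise than the rest. It had 101.4 and 194 CPM in Th9+TLA1 and 168 and 247 CPM in Th9, higher in replicate 2 of each condition, and its groups overlapped.

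The fold changes varied with transcript length. Over all tested genes the median log2 fold change was -0.091 for the 4485 genes with a longest transcript over 3674 bases, the median length of the members, and 0.049 for the 5575 others with a known length. Within the members it was the other way round, with -0.43 for 22 longer and -0.52 for 23 shorter genes. With the trend over length and GC content removed, the median of the 45 members was -0.41 and that of all tested genes -0.015.

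Genes of the same processes outside the 45 were read in the same fit. None of the 8 lists of further mitosis genes held a called gene by limma. Of 27 further spindle genes tested, 27 had a log2 fold change below 0, with a median of -0.47, and 12 had an unadjusted p under 0.05, all lower. Kif14 had the largest difference of these, at 3.02 and 3.57 CPM in Th9+TLA1 and 8.91 and 8.84 CPM in Th9 (limma adjusted p = 0.370). Of 27 further kinetochore and centromere genes 22 were below 0 (median -0.37, 3 at an unadjusted p under 0.05). The median was -0.24 with Th9 replicate 1 left out. At an unadjusted p under 0.05, 44.4% of the further spindle genes and 11.1% of the further kinetochore and centromere genes were lower. Over all tested genes 8.14% were. Knl1, the kinetochore scaffold on which BUB1 and BUBR1 assemble, was the nearest to a call. It had 18.5 and 28.6 CPM in Th9+TLA1 and 112 and 54.3 CPM in Th9, and its log2 fold change was -1.63 ± 0.36 at a limma adjusted p of 0.0551. EdgeR's quasi-likelihood test and DESeq2 called Knl1, with adjusted p of 0.0366 and 0.00297.

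The 3 condensin II genes had a median of -0.61, and Ncapd3 had 117 and 128 CPM in Th9+TLA1 and 243 and 203 CPM in Th9 (limma adjusted p = 0.0845). Of 16 cohesin, shugoshin and separase genes 12 were below 0 (median -0.25), and the median was -0.14 with Th9 replicate 1 left out and -0.47 with Th9 replicate 2 left out. Sgo1, the shugoshin that protects centromeric cohesion, had 37.6 and 52.9 CPM in Th9+TLA1 and 100.5 and 102 CPM in Th9, and the log2 difference was -1.07 ± 0.25 (limma adjusted p = 0.0720). DESeq2 called Ncapd3 and Sgo1, with adjusted p of 0.0306 and 0.0282. Of 8 further checkpoint genes 6 were below 0 (median -0.36). With Th9 replicate 1 left out 4 were below 0 and the median was -0.029. The median was -0.15 with Th9+TLA1 replicate 2 left out and -0.69 with Th9 replicate 2 left out. In this list Kntc1 had 22.5 and 87.3 CPM in Th9+TLA1 and 145 and 119 CPM in Th9, the Th9+TLA1 libraries lying far apart. Of 21 further regulators of mitotic entry and exit 16 were below 0 (median -0.39), with a median of -0.21 when Th9 replicate 1 was left out. Bora, which encodes the cofactor by which Aurora A activates Polo kinase, had 18.1 and 20.8 CPM in Th9+TLA1 and 53.9 and 38.5 CPM in Th9 (limma adjusted p = 0.139). The unadjusted p was under 0.05 for 2 of the 3 condensin II genes, 4 cohesin genes and 2 checkpoint genes, all lower. It was under 0.05 for 4 entry and exit regulators, 3 of them lower. The lower genes made up 66.7%, 25%, 25% and 14.3% of these lists in turn. Over all tested genes 8.14% were lower at this threshold, and 16.7% passed it in all.

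The 16 APC/C core genes were nearer to all genes, with a median of -0.12 and 11 below 0. Anapc10 had 15.8 and 10.1 CPM in Th9+TLA1 and 21.8 and 18.0 CPM in Th9 (limma adjusted p = 0.593), and 1 gene of the list had an unadjusted p under 0.05. Of 14 genes of the MuvB, B-MYB and E2F repressor complexes, which are known to act on promoters of cell cycle genes, 11 were below 0 with a median of -0.18, and 2 had an unadjusted p under 0.05. With Th9+TLA1 replicate 1 left out 7 of the 14 were below 0 and the median was 0.019. At an unadjusted p under 0.05, 14.3% of this list and 6.25% of the APC/C core genes were lower, against 8.14% of all tested genes. E2f7, an E2F repressor gene, had 8.73 and 2.27 CPM in Th9+TLA1 and 17.3 and 12.6 CPM in Th9.

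Genes of DNA replication, which comes before G2, had values close to those of the members. Of 30 S phase genes, none was called by limma, and 29 had a log2 fold change below 0. An unadjusted p under 0.05 was found for 11 of these 30 (36.7%), all lower, where 8.14% of all tested genes were lower. The median of -0.46 of the S phase genes stood beside the -0.45 of the 45 members. Chaf1a, a histone chaperone subunit of replication, had 55.7 and 57.4 CPM in Th9+TLA1 and 107 and 125 CPM in Th9 (limma adjusted p = 0.0807), and DESeq2 called 3 genes of the list, Chaf1a, Mcm2 and Rrm2. A list of G1 cyclins, their kinases and CDK inhibitors, which joins activators with inhibitors, had a median of the other sign, 0.35 over 9 tested of 13 listed. Of these, 6 were above 0 and 3 below, with a range of -0.50 to 0.66, and none was called by limma. The median was 0.16 with Th9 replicate 1 left out and 0.49 with Th9 replicate 2 left out. Cdkn2d, an inhibitor of the CDK4 and CDK6 kinases, had 247 and 189 CPM in Th9+TLA1 and 135 and 156 CPM in Th9 (limma adjusted p = 0.151). Ccnd2, a D type cyclin, had 1005 and 930.2 CPM in Th9+TLA1 and 669.5 and 650.4 CPM in Th9, and Cdkn1a, the p21 inhibitor, had 341 and 318 CPM in Th9+TLA1 and 231 and 215 CPM in Th9. Their log2 fold changes were 0.64 ± 0.17 and 0.65 ± 0.17, with limma adjusted p of 0.103 and 0.107. DESeq2 called both, with adjusted p of 0.00907 and 0.0365. In this G1 list 4 of the 9 tested genes had an unadjusted p under 0.05, all higher, where 8.54% of all tested genes were higher.

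**Figure D4:**
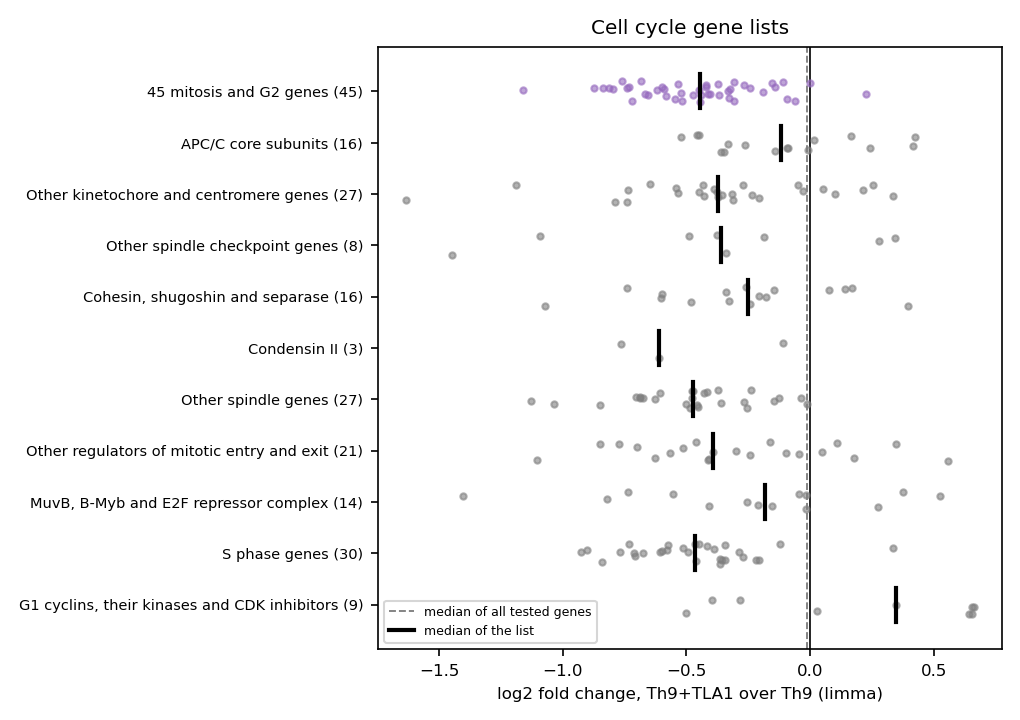
Log2 fold change (Th9+TLA1 over Th9, limma) of each tested gene in the 45 mitosis and G2 genes and in 10 further cell cycle lists, with the number of tested genes in brackets, a black bar at each median and a dashed line at the median of all tested genes. The medians of the 45 genes (-0.45), further spindle genes (-0.47) and S phase genes (-0.46) lie close together. That of the list of G1 cyclins, their kinases and CDK inhibitors lies at 0.35.

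The fit was repeated with 1 library left out at a time. The median of the 45 was -0.39 without Th9+TLA1 replicate 1 and -0.51 without Th9+TLA1 replicate 2. With Th9 replicate 1 left out it was -0.34, and with Th9 replicate 2 left out -0.56. The log2 fold change lay below 0 in each of these 4 fits for 38 of the 45 genes. The other 7 were Cdc25c, Tpx2, Ube2c, Cenpa, Kif4, Ncapd2 and Ect2.

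**Figure D5:**
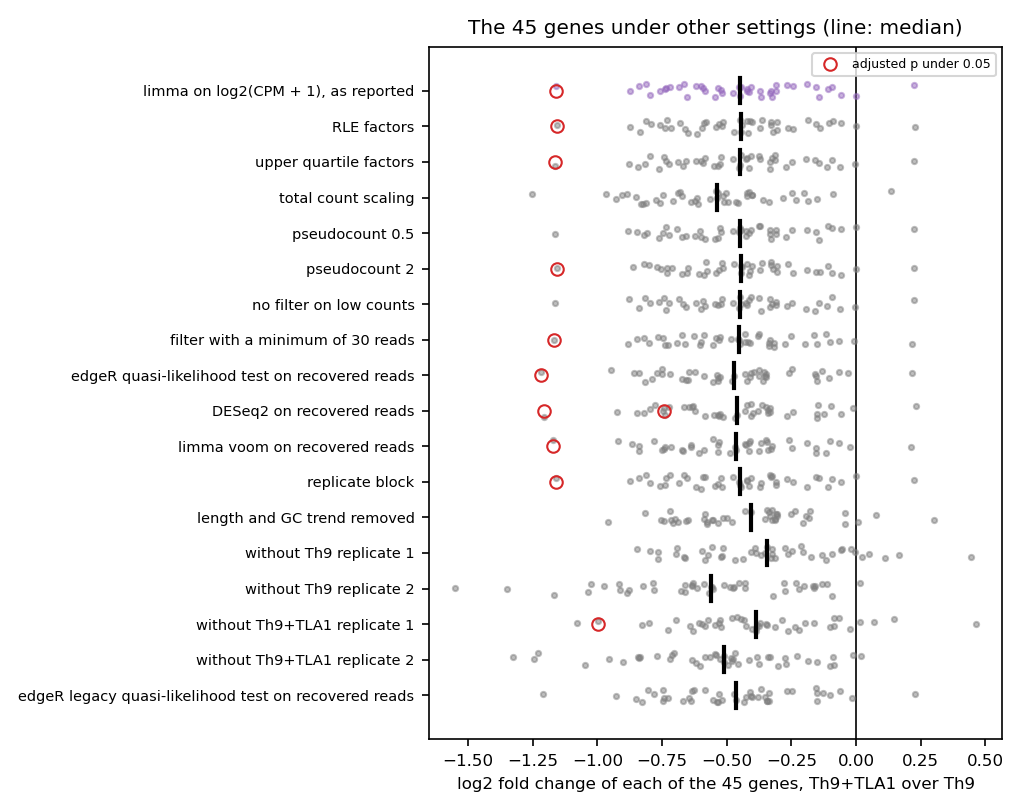
Log2 fold change (Th9+TLA1 over Th9) of each of the 45 genes in the reported fit (top) and under each other setting or without each library, with a bar at the median and a red ring at each called gene. The median stays between -0.56 and -0.34, and the rings mark Mki67 or, for DESeq2, Mki67 and Bub1.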

How the data were processed

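RNA of mouse T cells was measured in 4 libraries, 2 per condition. Per the labels' protocols, cDNA was made with a SMARTer Ultra Low Input kit, and sequenced on an Ion Torrent instrument; this kit is known not to mark strand. Build mm10, edgeR and HTSeq 0.5.4 were used per the submitters' processing notes. Not given in the sources used here: aligner and annotation. The authors deposited CPM values; 100% of non-zero values were whole multiples of 1 read (tolerance 0.01), and reads were recovered.

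Symbols and loci came from RefSeq (GRCm38.p6, also mm10's assembly) for 23383 of 23480 identifiers. Genes were filtered with filterByExpr (minimum 10 recovered reads), scaled by TMM factors (0.964 to 1.06), and log2(CPM + 1) was fitted with limma (mean trend, group alone). That scale understates the change of low genes. Calls needed a p under 0.05 after Benjamini-Hochberg adjustment over the 10324 genes tested. Printed CPM are the deposited ones. Alternatives were other scaling, pseudocounts and filters, edgeR, DESeq2 and voom on recovered reads, a replicate block, removal of the length and GC trend (longest GENCODE M21 transcript), and each library left out. On simulated data the fit recovered 29.7% of 2-fold and 76.3% of 4-fold changes, with 6.67 false calls per run on average. Genes that did not pass may therefore still differ. Reads from amplified cDNA are not independent molecules, so floors cover counting error only. Replicates differed by 7.80 (Th9+TLA1) and 12.7 (Th9) times sampling noise (chi-square per degree of freedom).

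The members and lists were chosen with earlier results of these data known. By the naming rule, the called members, and in each role the member with the largest difference and the one with the most reads, were described; the other members were added so that all 45 are covered. In each further list the gene with the largest difference was named; Spc24, Ccnd2, Cdkn1a, Mcm2 and Rrm2 fell outside it and were chosen after their values were seen. Loci of 20 members overlap another RefSeq locus when whole ranges, introns included, are compared. Whether exons overlap was not examined, and without strand, reads from shared sequence may not be told apart. Versions were limma 3.58.1, DESeq2 1.42.0 and edgeR 4.0.16 in R 4.3.3, and matplotlib 3.10.9, numpy 2.4.6 and pandas 2.3.3 in Python 3.11.15.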

Additional observations from a re-analysis of the deposited data

How the results depend on the processing

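Over all genes, the 118 calls (92 higher, 26 lower) became 73 (52 higher) with total count scaling, 33 (25 higher, 8 lower) without a filter on low counts, 273 (182 higher, 91 lower) with DESeq2 and 225 (147 higher, 78 lower) with the replicate block. Lower calls numbered 43 with upper quartile factors and 44 of 161 calls with edgeR's quasi-likelihood test. Leaving out 1 library gave 19 to 155 calls, 19 to 87 higher and 0 to 68 lower. Of the 45 members, 0 were called with total count scaling, a pseudocount of 0.5, no filter, the length and GC trend removed, or edgeR's legacy test (an alternative added after the data were seen), where Mki67 had adjusted p of 0.0696, 0.0535, 0.129, 0.0648 and 0.0517. DESeq2 called 2, and 0 to 1 were called with a library left out. The member median stayed between -0.56 and -0.34 under every alternative run. The other cell cycle lists held 1 called gene with RLE factors, 1 with upper quartile factors, 1 with edgeR, 8 with DESeq2, 4 with the replicate block and 0 to 3 with a library left out. The cause of these changes was not tested.

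The sign changed for Cdc25c with RLE factors (0.0019) and with the length and GC trend removed (0.0096), and for Ncapg with that trend removed (0.079). With 1 library left out, log2 fold changes spanned 0 for Cdc25c (-0.16 to 0.17), Tpx2 (-0.32 to 0.11), Ube2c (-0.19 to 0.069), Cenpa (-0.20 to 0.022), Kif4 (-0.013 to 0.46), Ncapd2 (-0.53 to 0.15) and Ect2 (-0.90 to 0.015). A fit with 1 library in a group assumes that it varies like the other group.

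The labels do not say whether replicate numbers pair the libraries. Both replicate 2 files share a prefix in their names and the replicate 1 files do not, and its meaning is not stated. Deviations of same-numbered libraries had a correlation of -0.011 over 10324 genes. In this balanced design a replicate block cannot change a log2 fold change, only its p, so the unchanged -1.16 of Mki67 was fixed in advance. The limma adjusted p of Mki67 was 0.0123 with the block and 0.0464 without it. The block changed no member's call.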
